A study of Mus musculus with 22 samples.

Results

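The choroid plexus (ChP) hangs in the brain ventricles as a sheet of epithelium folded over a core of leaky vessels and connective tissue. The genes described here are 35 markers of the cells of that core, taken by symbol from a list of known cell type markers: 21 markers of endothelial cells, 12 of mural and stromal cells, and 2 ligands that vessel cells use to signal to each other, *Pdgfb* and *Angpt2*. All 35 were found among the 33984 genes counted. RNA was sequenced from mouse ChP in which *Otx2*, a homeobox transcription factor of the ChP epithelium, was altered in 3 ways. In the conditional model, 3-month-old *Otx2 lox/lox* mice (strain S129) received Cre-Tat, a Cre recombinase protein able to enter cells, or vehicle, in both lateral ventricles, and the ChP of the lateral ventricles (LV) and of the fourth ventricle (4V) were taken apart from each other 15 days later. In the constitutive model (strain B6D2), only the 4V ChP was taken, from 3-month-old *Otx2+/GFP* mice, labelled *Otx2* (+/-), which carry a *GFP* allele in place of an *Otx2* copy in every cell from conception, from their wildtype littermates, and from *Otx2* (+/AA) mice, of which the labels give no more than genotype, strain and tissue. Each of the 7 groups held 2 pools, A and B. A pool was made from 5 mice in the Cre-Tat groups, 4 in the vehicle groups, 4 in the *Otx2+/GFP* group and 5 in the wildtype group, with males and females mixed, and these mice were perfused with saline. All mice of the conditional model, controls included, carried the floxed alleles and were injected, and the 4V ChP was not the site of injection.

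Endothelial cells line the vessels, and in ChP their walls are fenestrated, pierced by pores that are closed by diaphragms of the protein PLVAP, so that plasma passes into the stroma and the barrier is formed by the epithelium. Pericytes and smooth muscle cells, together called mural cells, wrap the endothelium and are held there by PDGF-B, which endothelial cells release and the receptor PDGFRB on mural cells receives. Growth and upkeep of the vessels run through VEGF and its receptors (*Kdr*, *Flt1*, *Flt4*) and through the angiopoietins and their receptor TEK.

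Levels are given as normalised counts (CPM), the count of a gene's most counted transcript per 1000000 counts of the TMM-scaled library, and between genes as CPM per kilobase of that transcript. Pools held 22750019 to 50088408 counts. Each pool of the conditional model was sequenced in 2 runs, which were summed, and the library number carried by each of its 16 files went against the sample it was attached to in 14 of them. Files were joined by library number, since runs paired in that way differed by little more than counting noise (chi-square per degree of freedom 1.00 to 1.04), whereas runs paired as attached differed by 22.8 to 40.8. A difference was called where edgeR's quasi-likelihood test gave an adjusted p (Benjamini-Hochberg, over every gene in the comparison) under 0.05. A permutation test could not have been used in its place, since the smallest exact two-sided p for 2 pools in each of 2 groups is 0.333. *Otx2* itself, counted over the whole transcript, was at 303 to 469 CPM in the vehicle, wildtype and *Otx2* (+/AA) pools and at 885 to 1235 CPM in the Cre-Tat and *Otx2+/GFP* pools, opposite to the loss that the labels name, so that directions below are those of the pools as labelled and the exon removed by Cre was not measured apart. Per the study's methods, Cre-Tat samples were screened by qPCR for reduced *Otx2* before pooling, which a count over the whole transcript does not measure. The study also reports fewer reads over a single *Otx2* exon in both Cre-Tat groups and in *Otx2+/GFP* than in their controls. Strain, injection and sequencing run differed between the models and cannot be told apart, and in bulk tissue fewer cells of a type and less RNA per cell cannot be told apart either.

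Most endothelial markers were plainly present, and the markers that define lymphatic vessels were not. *Pecam1*, an adhesion molecule of all endothelium, ranged over the 14 pools from 15.3 to 52.8 CPM, *Cdh5*, the cadherin of endothelial junctions, from 11.03 to 37.8 CPM, and *Plvap* from 9.18 to 55.7 CPM. Of a list of 7 lymphatic genes, *Prox1*, the factor that sets lymphatic identity, was at 0 to 1.15 CPM, *Lyve1*, a hyaluronan receptor of lymphatic vessels and some macrophages, at 0.156 to 1.33 CPM, and *Ccl21a*, a chemokine of lymphatic endothelium, had no count in any pool, which allows up to 0.1204 to 0.277 CPM in a pool (3 counts, for counting error only; *Ccl21a* has near-identical gene copies whose reads can be lost). *Flt4*, the VEGF-C receptor, which is found on lymphatic and on some fenestrated blood endothelium, was at 1.90 to 9.65 CPM. *Pdpn* reached 75.2 to 198 CPM and *Itga9* 17.1 to 48.9 CPM, but neither is restricted to lymphatics. The remaining genes of the list, *Foxc2* and *Reln*, had enough counts to be tested in each comparison. The defining lymphatic markers were thus at or near 0, and the members are called endothelial and mural here. Among them, the brain-barrier junction gene *Cldn5* was low, at 0.806 to 5.73 CPM.

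Pericyte and stromal genes and the genes of fenestrated vessels led the order of levels. *Rgs5*, a G-protein regulator of pericytes, had a median over the 14 pools of 51.3 CPM per kilobase, with a range of 37.3 to 94.5. It was followed by *Pdgfra*, the receptor of PDGF-A and PDGF-C on fibroblasts and on oligodendrocyte precursors, at 25.1 CPM per kilobase (13.4 to 38.8), and by *Plvap* at 20.9 (4.62 to 28.0). The endothelial sialomucin *Emcn* (13.8 CPM per kilobase), the main VEGF receptor *Kdr* (13.3), *Pecam1* (9.27), the PDGF-B receptor *Pdgfrb* (8.80), *Egfl7*, a secreted endothelial protein (8.23), and the VEGF decoy receptor *Flt1* (7.94) came next. In all 34 pairs of neighbours in the order the ranges over the 14 pools overlapped. These ranges include the differences between groups, and the order within a group was not compared. The middle of the order, from 6.08 down to 1.20 CPM per kilobase, was held by the endothelial matrix protein *Mmrn2* and the sialomucin *Cd34*, the ligand *Pdgfb*, the smooth muscle genes *Tagln*, *Acta2* and *Myh11*, the junction genes *Esam* and *Cdh5*, the receptors *Tek*, *Tie1* and *Eng*, the transcription factors *Erg* and *Tbx18*, the mural intermediate filament *Des*, the ligand *Angpt2*, the junction gene *Cldn5*, the endothelial regulator *Ecscr* and the smooth muscle Notch receptor *Notch3*. *Higd1b*, a pericyte gene, *Flt4*, the endothelial factors *Sox17* and *Sox18*, the proteoglycan *Cspg4* (NG2) of pericytes, *Ly6c1*, *Vwf*, the clotting factor of larger vessels, and *Thy1*, a marker of fibroblasts and neurons, stayed below 1 CPM per kilobase at their medians. *Ly6c1* (0.185 to 1.41 CPM) has a near-identical copy, *Ly6c2*, and its level is uncertain.

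**Figure D1:**
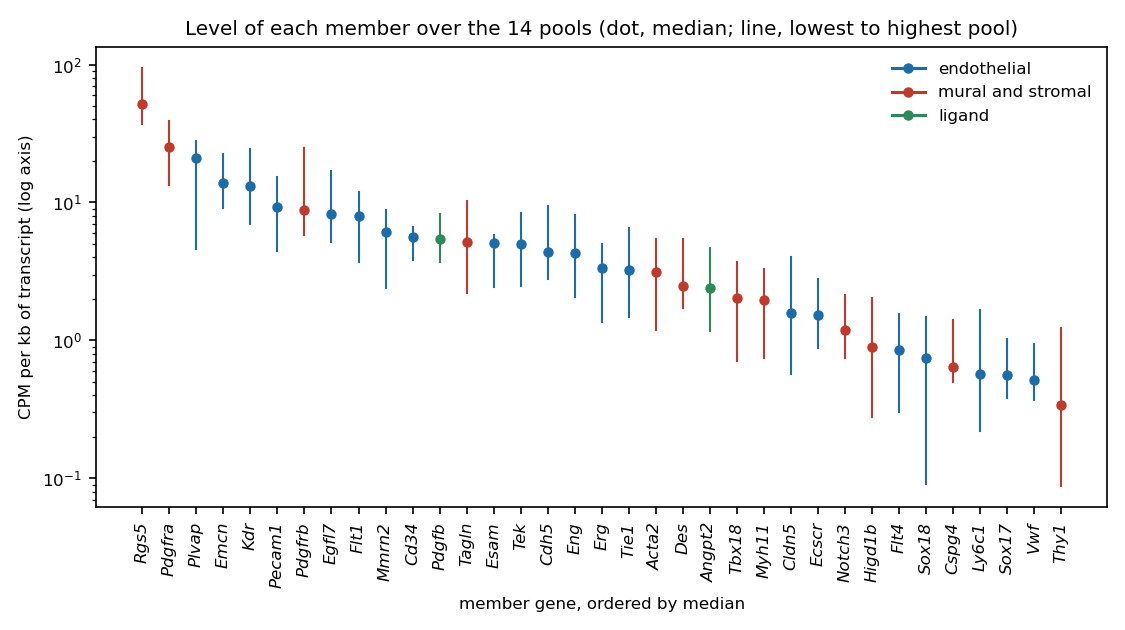
Level of each of the 35 members in CPM per kilobase of the counted transcript on a log axis, with a dot for the median over 14 pools and a line from the lowest to the highest pool, in blue for endothelial, red for mural and stromal and green for ligand genes. Medians run from 51.3 for *Rgs5* to 0.338 for *Thy1*, and the lines of neighbours overlap throughout.

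The pools of the 2 models stood apart for these genes. In CPM, *Kdr* was at 50.1 and 56.9 in the vehicle 4V pools and at 104 and 129 in the wildtype 4V pools. *Pdgfrb* was at 31.2 and 36.1 against 80.6 and 118, and *Tek* at 11.6 and 11.5 against 31.8 and 35.1. The wildtype pools were higher for each, without overlap, and the same held for 19 of the 21 endothelial members (90.5%; *Vwf* and *Sox17* overlapped) and 10 of the 12 mural and stromal members (83.3%), beside 34.9% of all 14624 genes compared. The gap was not particular to the members. It held for all 8 fibroblast and all 8 macrophage and leukocyte genes compared, from lists described below. The share was 90% of 20 other endothelial and 81.8% of 11 other mural genes. It was 10% of 10 epithelial genes and 0% of 8 brain-barrier genes. The median difference, wildtype over vehicle 4V, was 1.31 on the log2 scale for endothelial and 1.12 for mural and stromal members and 0.02 for all genes. The ratio was largest for the thinly counted *Sox18* (5.56) and *Ly6c1* (5.12), followed by *Plvap* (4.99), *Flt4* (3.52), *Tie1* (3.31) and *Mmrn2* (3.19), and *Pdgfra* (0.844) and *Higd1b* (0.608) were the members with a ratio under 1. The contrast is given without a test because strain, injection, run and library batch all change with it. Comparisons of genotype or treatment were therefore made within a model.

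**Figure D2:**
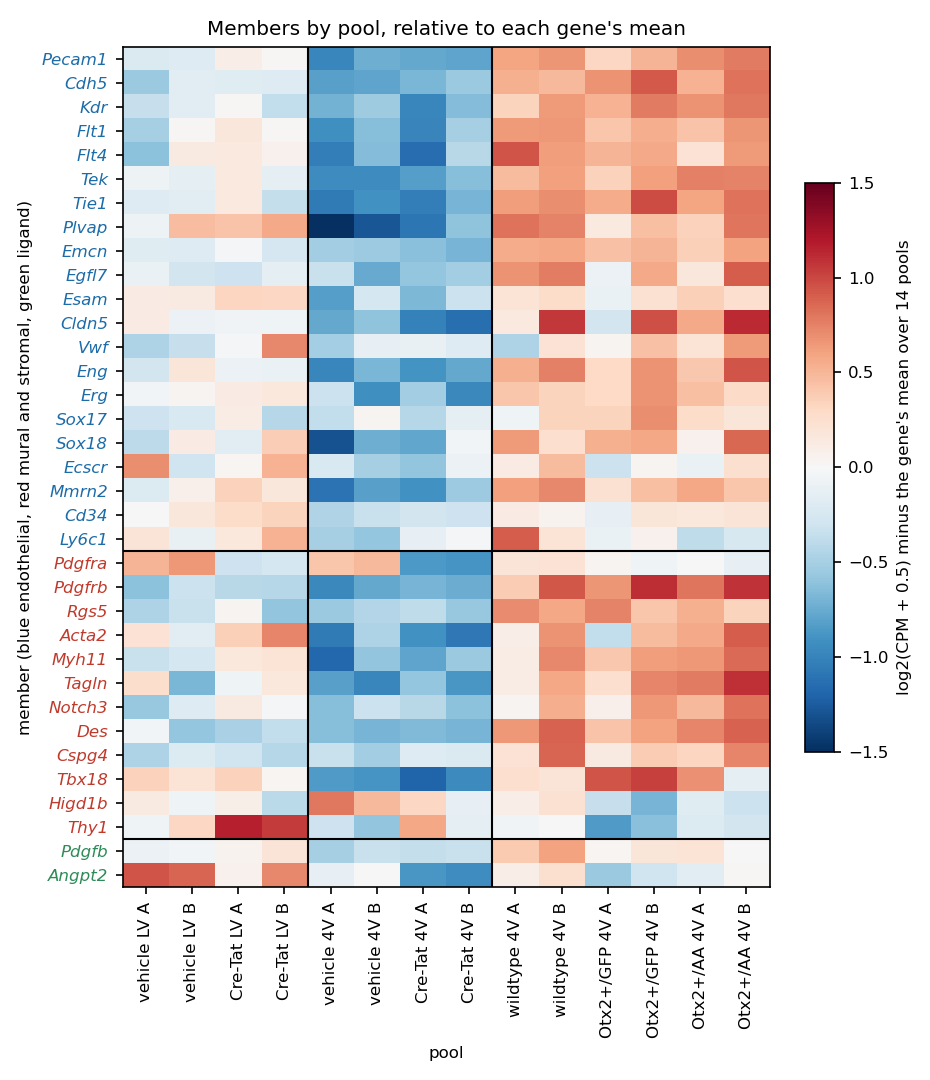
Each of the 35 members (lines) in each of the 14 pools (columns) as log2(CPM + 0.5) minus the gene's mean over the pools, on a colour scale from -1.5 to 1.5. Most endothelial members are lowest in the 4V pools of the conditional model and highest in the 6 pools of the constitutive model, whereas *Pdgfra* is lowest in the 4 Cre-Tat pools.

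Promoter sequence was looked up for the members because several moved together between ventricles, and *Pdgfra* and *Tbx18* moved with a treatment or genotype. Windows from RefSeq (GRCm38.p6) were found for 19 of the 35 members and not for *Plvap*, *Angpt2*, *Pecam1* or *Mmrn2*, among others. The 250 bases before the annotated start of *Pdgfra* (chr5:75152001-75152250, plus strand), *Tbx18* (chr9:87731261-87731510, minus strand) and *Tek* (chr4:94739039-94739288, plus strand) are shown because they hold the call kept most firmly with Cre-Tat, the only call with *Otx2+/GFP* and a receptor that differed between ventricles. They read as follows, 5′ to 3′ on the gene's strand, with a match to a searched motif in capitals.
Pdgfra: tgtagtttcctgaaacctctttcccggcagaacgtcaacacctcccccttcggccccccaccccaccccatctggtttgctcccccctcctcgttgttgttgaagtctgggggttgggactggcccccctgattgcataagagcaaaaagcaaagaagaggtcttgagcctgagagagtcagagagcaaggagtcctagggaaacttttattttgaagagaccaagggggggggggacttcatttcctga
Tbx18: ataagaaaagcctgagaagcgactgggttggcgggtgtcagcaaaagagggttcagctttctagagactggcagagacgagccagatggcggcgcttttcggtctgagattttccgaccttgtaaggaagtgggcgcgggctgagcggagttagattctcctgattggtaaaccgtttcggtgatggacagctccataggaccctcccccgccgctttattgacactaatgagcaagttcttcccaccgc
Tek: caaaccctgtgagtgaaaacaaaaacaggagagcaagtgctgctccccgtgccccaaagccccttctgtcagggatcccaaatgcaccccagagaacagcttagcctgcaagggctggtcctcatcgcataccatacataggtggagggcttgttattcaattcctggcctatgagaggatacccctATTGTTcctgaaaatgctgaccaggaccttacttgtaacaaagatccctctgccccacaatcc
The capitals in *Tek* are AACAAT read on the other strand, the core bound by SOX factors. The letters TAATCC (bound by OTX and related homeodomains), CGGAAG (ETS), AACAAT (SOX), CAGCTG (E-box) and the CArG box (SRF) were searched on both strands of windows of 300 bases. TAATCC stood in the window of 1 of the 19 members with one, *Ly6c1*, beside 7.06% of all 32851 windows. AACAAT stood in those of *Emcn*, *Erg* and *Tek* (15.8% of the 19, beside 10.7% of all windows), CGGAAG in that of *Tie1* (16.9% of all windows), and CAGCTG in those of *Acta2*, *Des*, *Egfl7*, *Ly6c1* and *Rgs5* (26.3%, beside 16.3%), while no member's window held a CArG box (1.63% of all windows). These matches describe letters in a window and not binding.

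The first question was whether the vessel and stromal genes changed with Cre-Tat in the ChP of the injected ventricles. In LV, *Pdgfra* was lower in the Cre-Tat pools and no endothelial member passed the test. *Pdgfra* (chr5:75152292-75198215, plus strand) was at 232 and 254 CPM in the vehicle LV pools and at 130.4 and 135 CPM in the Cre-Tat LV pools. The groups did not overlap, and the change was -0.87 ± 0.16 (log2, SE; n = 2 pools each; adjusted p = 0.0081), a ratio of 0.548. It was the only call among the 35 members (2.86%), beside 3.24% of all 15002 genes tested. Without vehicle LV pool B the change was -0.80 and its adjusted p 0.084. 

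The other LV changes lay within what the test could not separate from the spread between pools. Of the 35 members, 26 were above zero and 9 below, with a median of 0.17 beside 0.00 for all genes tested, and 12 (34.3%) were higher in both Cre-Tat pools than in both vehicle pools, beside 21.9% of all genes. *Vwf* was at 3.39 and 3.73 CPM with vehicle and at 4.74 and 8.30 CPM with Cre-Tat (log2 0.87, adjusted p = 0.15). *Thy1* was at 0.621 and 0.945 CPM and at 2.13 and 1.93 CPM (1.37, adjusted p = 0.13). *Myh11*, the smooth muscle myosin, was at 9.17 and 9.65 CPM and at 13.1 and 13.5 CPM (0.50, adjusted p = 0.19). These 3 were higher in both Cre-Tat pools and, with *Pdgfra*, *Angpt2* and *Acta2*, made up the 6 members with an unadjusted p under 0.05, of which *Angpt2* had a change of -0.50 (adjusted p = 0.30) and *Acta2* of 0.55 (adjusted p = 0.30). Among the 21 endothelial members 18 were above zero, 1 had an unadjusted p under 0.05 and none was called by edgeR or by DESeq2, with a median of 0.19.

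In 4V the fall of *Pdgfra* was seen again, *Plvap* rose and *Angpt2* fell. *Pdgfra* was at 216 and 228 CPM in the vehicle 4V pools and at 88.9 and 87.5 CPM in the Cre-Tat 4V pools, a change of -1.33 ± 0.13 (adjusted p = 3.1e-06) or a ratio of 0.399. The Cre-Tat pools lay far below the vehicle pools, with an SD of 8.23 CPM in the vehicle and 1.00 CPM in the Cre-Tat group. Its transcript variants behaved alike, with group means of 222 and 88.2 CPM for *Pdgfra-201* and 223 and 87.9 CPM for *Pdgfra-202*. The call was kept with any of the 4 pools left out.

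*Plvap* (chr8:71497765-71511752, minus strand), which builds the diaphragms of the fenestrae, was at 9.18 and 12.6 CPM in the vehicle 4V pools and at 14.5 and 20.54 CPM in the Cre-Tat 4V pools. The groups did not overlap, but the spread within them was wide, and the change was 0.70 ± 0.20 (adjusted p = 0.034). The call was lost without vehicle 4V pool A (0.49, adjusted p = 0.29) and without Cre-Tat 4V pool B (0.44, adjusted p = 0.21), and DESeq2 gave an adjusted p of 0.086. In LV the same gene was at 29.8 and 43.6 CPM with vehicle and at 42.7 and 47.0 CPM with Cre-Tat, and these groups overlapped (0.29 ± 0.19, adjusted p = 0.57).

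*Angpt2* (chr8:18690263-18741562, minus strand), the angiopoietin that endothelial cells release and that loosens TEK signalling, was at 7.70 and 8.40 CPM in the vehicle 4V pools and at 4.39 and 4.18 CPM in the Cre-Tat 4V pools. The Cre-Tat pools were both lower, by -0.90 ± 0.23 (adjusted p = 0.015), and the shorter variant *Angpt2-202* moved the same way (3.57 to 1.52 CPM). Without vehicle 4V pool B the change was -0.85 with an adjusted p of 0.063. In LV it was at 16.7 and 15.9 CPM with vehicle and at 8.87 and 14.2 CPM with Cre-Tat, also without overlap, but the change did not pass the test.

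These were the 3 calls among the 32 members tested in 4V (9.38%), a share close to the 10.7% called among all 14550 genes tested. *Sox18*, *Ly6c1* and *Thy1* had too few counts in 4V to be tested. DESeq2 called 2 of the members. The 32 members were split between 18 above and 14 below zero (median 0.05), and the medians were 0.06 for endothelial and -0.01 for mural and stromal members. *Kdr* (-0.18), *Pecam1* (0.09), *Cdh5* (0.20), *Rgs5* (0.03) and *Pdgfrb* (0.16) are examples of the members that did not pass, and *Cldn5* had the lowest endothelial value (-0.56). The SE of a member's change ranged from 0.13 to 0.49 in 4V and from 0.16 to 0.63 in LV, so that for the less counted members changes of the size seen for *Plvap* were not detectable with these pools.

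**Figure D3:**
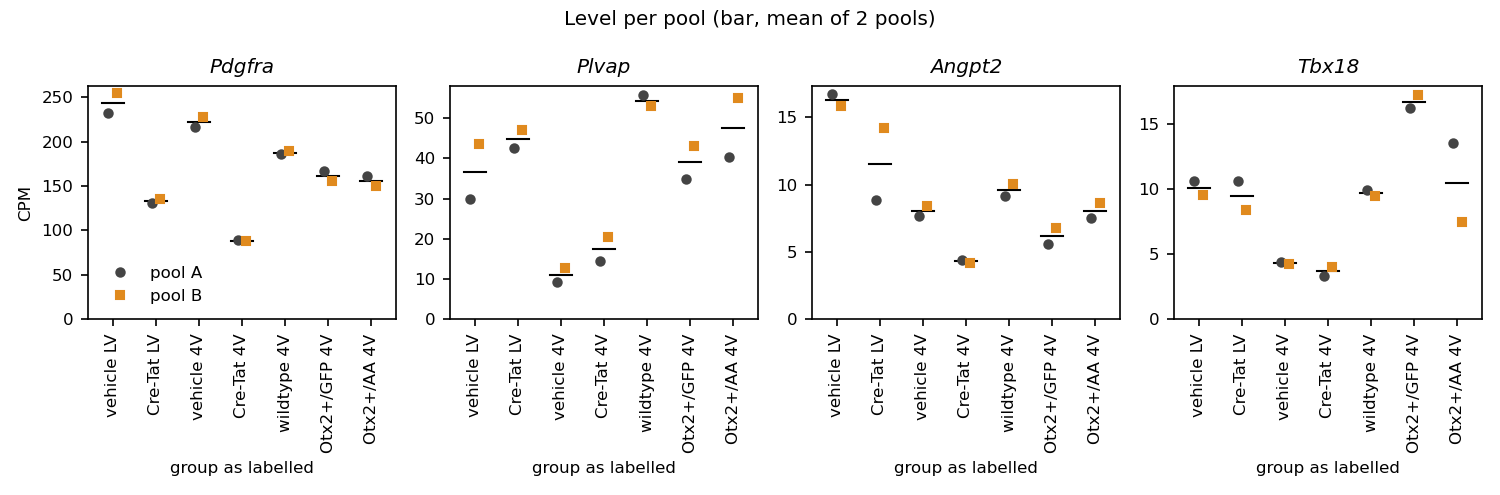
CPM of *Pdgfra*, *Plvap*, *Angpt2* and *Tbx18* in each pool of the 7 groups, with a circle for pool A, a square for pool B and a bar for the mean of the 2. *Pdgfra* falls with Cre-Tat in both ventricles, *Plvap* and *Angpt2* are higher in LV than in 4V of the conditional model, and *Tbx18* is highest in the *Otx2+/GFP* pools (16.2 and 17.3 CPM).

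Whether Cre-Tat acted differently in the 2 ventricles was tested as an interaction. No member passed it, beside 0.00642% of all genes (1 of 15565), and DESeq2 called none. *Pdgfra* alone had an unadjusted p under 0.05, with a change in 4V below that in LV by -0.46 ± 0.19 (adjusted p = 1). The calls of *Plvap* and *Angpt2* in 4V are thus not shown to be particular to that ventricle.

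Summed levels of markers of the cell types around the vessels differed in the Cre-Tat comparisons as well. The summed level of 10 epithelial genes was 186840 and 196150 CPM in the vehicle LV pools and 102340 and 142350 CPM in the Cre-Tat LV pools, and 176390 and 147500 against 79480 and 67799 CPM in 4V, where 8 of the 10 fell and *Otx2*, also on the list, rose. That sum mainly follows *Ttr*, which heads the study's own list of ChP genes by reads. *Ttr* changed by -0.66 in LV (not called) and by -1.18 in 4V. In LV, *Kcnj13* (-0.75) and *Aqp1* (-0.64) were called lower and *Otx2* (1.41) higher. The other falls called in 4V lay between -1.10 (*Aqp1*) and -0.53 (*Clic6*), and *Cldn2* was at 0.37 (not called). The summed level of 10 macrophage and leukocyte genes was 54.3 and 60.6 against 99.4 and 84.8 CPM in LV and 40.1 and 38.8 against 85.9 and 65.6 CPM in 4V, with 2 of 8 tested genes called higher in LV and 5 of 8 in 4V. Of all genes tested, 3.24% were called in LV and 10.7% in 4V, in either direction. Beside the fall of *Pdgfra*, a list of 8 fibroblast genes summed to 381 and 396 CPM with vehicle and 462 and 463 CPM with Cre-Tat in LV, and to 304 and 313 against 427 and 382 CPM in 4V, and *Col1a2*, a chain of collagen I, rose by 1.64 (log2) in LV and 1.57 in 4V. It was the only one of the 8 called in either ventricle, and the others ranged from -0.13 (*Dcn*) to 0.65 (*Igf1*) in LV and from -0.15 (*Lum*) to 0.41 (*Igf1*) in 4V. Of 10 neuron and glia genes, *Aqp4*, the water channel of astrocytes, rose in LV (0.78) and 4V (0.84), and also in *Otx2+/GFP* (1.74). The other calls of this list with Cre-Tat went both ways. *Snap25* rose in LV (1.27) and *Gfap* in 4V (0.87), whereas *Syt1* fell in 4V (-0.77). Summed endothelial members were at 323 and 375 against 415 and 380 CPM in LV and at 213 and 238 against 213 and 252 CPM in 4V. The part of these shifts in the members' results was not tested.

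In the constitutive model the question was whether lifelong loss of an *Otx2* copy went with other levels of these genes in 4V. *Tbx18* (chr9:87702800-87731260, minus strand), a T-box factor of pericytes, smooth muscle cells and some fibroblasts, was at 9.91 and 9.50 CPM in the wildtype pools and at 16.2 and 17.3 CPM in the *Otx2+/GFP* pools. Both *Otx2+/GFP* pools were above both wildtype pools, and the change was 0.79 ± 0.15 (adjusted p = 0.027), a ratio of 1.73. It was the only call among the 35 members (2.86%), beside 3.53% of all 14573 genes tested, and DESeq2 also called 1. Without *Otx2+/GFP* pool A its adjusted p was 0.056 and without pool B 0.054, and exons of another gene on the other strand overlap 19.9% of its transcript. The summed fibroblast list was also higher in these pools, at 1013 and 908 CPM against 655 and 575 CPM, and that of the macrophage genes was 80.1 and 86.8 against 62.8 and 68.3 CPM, whereas 10 epithelial genes summed to 83697 and 96066 against 156270 and 146580 CPM. The epithelial sum mainly follows *Ttr*, which changed by -0.78. *Folr1* (-0.67) and *Prlr* were also called lower and *Otx2* (1.53) higher. The other epithelial genes, from -0.603 (*Aqp1*) to 0.047 (*Clic6*), were not called. The part of these lists in the value of *Tbx18* was not tested.

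Of the 21 endothelial members, 14 had a value below zero in *Otx2+/GFP*, and none was called by edgeR or DESeq2 (2 with an unadjusted p under 0.05). Of the 35 members, 23 were below zero and 12 above (median -0.16, with that of all genes tested at 0), and 15 were lower in both *Otx2+/GFP* pools than in both wildtype pools (42.9%, beside 25.4% of all genes), 9 of them endothelial. *Plvap* was at 55.7 and 53.1 CPM in the wildtype and at 34.97 and 43.1 CPM in the *Otx2+/GFP* pools, a change of -0.48 ± 0.13 (adjusted p = 0.097). *Angpt2* was at 9.13 and 10.1 CPM and at 5.60 and 6.78 CPM (-0.63 ± 0.18, adjusted p = 0.11). *Pdgfb*, the ligand that recruits pericytes, was at 20.8 and 24.1 CPM and at 16.1 and 17.9 CPM (-0.40, adjusted p = 0.20). In each of these 3 the *Otx2+/GFP* pools were lower without overlap, and none passed the test. *Cdh5* (0.30) and *Sox17* (0.47) were higher in both *Otx2+/GFP* pools, and *Pdgfra* was at 186 and 189 against 167 and 155 CPM, a change of -0.21 ± 0.11 (adjusted p = 0.36). *Higd1b* (-1.34) and *Thy1* (-1.64) had the lowest values, at 0.151 to 0.843 CPM in these pools. All 21 endothelial members were higher in *Otx2+/GFP* pool B than in pool A, with a median difference of 0.30 on the log2 scale beside 0.01 for all genes.

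In the *Otx2* (+/AA) pools no member was called by edgeR or by DESeq2, beside 0.345% of all 14494 genes, and 4 had an unadjusted p under 0.05. They were the smooth muscle gene *Tagln* (8.04 and 11.4 CPM in wildtype, 13.1 and 16.4 CPM in *Otx2* (+/AA), 0.59), *Ly6c1* (1.41 and 0.675 against 0.281 and 0.365 CPM, -1.69), *Pdgfb* (20.8 and 24.1 against 18.2 and 15.7 CPM, -0.41) and *Pdgfra* (186 and 189 against 161 and 149 CPM, -0.28 ± 0.13), with adjusted p of 0.34, 0.34, 0.43 and 0.55. All 4 were without overlap between the groups. Exons of other genes on the other strand overlap 61.8% of the *Tagln* transcript. The members were split between 19 above and 16 below zero, with a median of 0.03. This comparison and the *Otx2+/GFP* comparison share the wildtype pools.

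**Figure D4:**
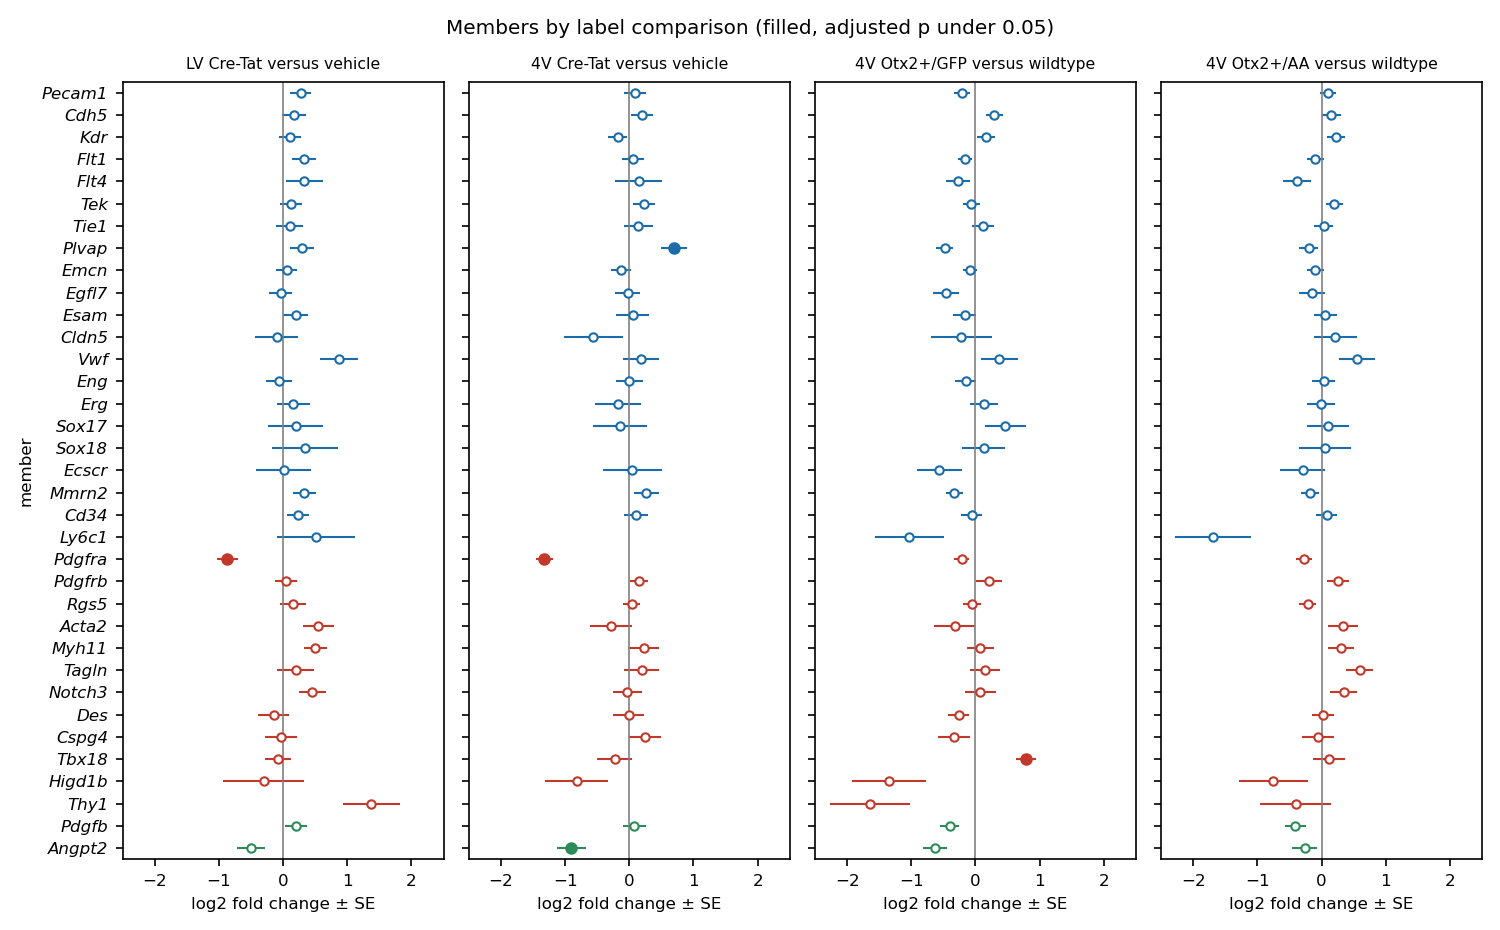
Log2 fold change with SE of each member in Cre-Tat over vehicle LV, Cre-Tat over vehicle 4V, *Otx2+/GFP* over wildtype and *Otx2* (+/AA) over wildtype, filled where the adjusted p was under 0.05. Filled points are *Pdgfra* in LV, *Pdgfra*, *Plvap* and *Angpt2* in 4V and *Tbx18* in *Otx2+/GFP*, and the *Otx2* (+/AA) panel has none.

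The conditional and constitutive effects in 4V were compared directly, as the change with Cre-Tat minus the change with *Otx2+/GFP*. *Pdgfra* (-1.12 ± 0.16, adjusted p = 0.0038) and *Plvap* (1.16 ± 0.26, adjusted p = 0.046) differed, which is 2 of 35 members (5.71%) beside 1.64% of all 15327 genes tested. *Pdgfra* fell in 4V with Cre-Tat by -1.33, against a value of -0.21 with *Otx2+/GFP*. *Plvap* was higher with Cre-Tat (0.70) and had a value below zero with *Otx2+/GFP* (-0.48). The *Plvap* difference lost its call with any of 6 of the 8 pools left out (adjusted p 0.073 to 0.24), whereas that of *Pdgfra* kept it with each. The difference for *Tbx18* (-1.03 ± 0.26) had an adjusted p of 0.082. Model, strain, age at loss of the gene and run all change together in this comparison.

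Within the conditional model, LV and 4V were compared as well. In the vehicle pools most endothelial and mural genes were higher in LV than in 4V, and 8 of the 34 members tested passed the test, all higher in LV (23.5%, beside 3.46% of all 14561 genes called higher in LV and 7.44% called in either direction). They were the diaphragm gene *Plvap*, the angiopoietin receptor *Tek*, its partner *Tie1*, the ligand *Angpt2*, the adhesion molecule *Pecam1*, the TGF-beta coreceptor *Eng*, the matrix protein *Mmrn2* and the mural factor *Tbx18*, that is 6 of 20 tested endothelial members, 1 of 12 mural and stromal members and 1 ligand.

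*Plvap* showed the largest of these differences, at 29.8 and 43.6 CPM in LV and 9.18 and 12.6 CPM in 4V (1.75 ± 0.20, adjusted p = 0.00012), a ratio of 3.37. *Tbx18* was at 10.6 and 9.55 CPM against 4.37 and 4.24 CPM (1.22 ± 0.21, adjusted p = 0.0037). *Angpt2* was at 16.7 and 15.9 CPM against 7.70 and 8.40 CPM (1.02 ± 0.17, adjusted p = 0.0028). For all 3 both LV pools stood well above both 4V pools. *Tek* (chr4:94739289-94874976, plus strand) was at 21.5 and 20.6 CPM against 11.6 and 11.5 CPM (0.86 ± 0.15, adjusted p = 0.0038). *Mmrn2* was at 18.1 and 22.1 CPM against 9.48 and 11.7 CPM (0.93 ± 0.17, adjusted p = 0.0051). *Tie1* was at 11.5 and 11.8 CPM against 6.07 and 6.83 CPM (0.85 ± 0.19, adjusted p = 0.016). The LV pools were again above the 4V pools without overlap.

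*Pecam1* was at 26.3 and 26.7 CPM in LV and 15.3 and 18.2 CPM in 4V (0.66 ± 0.15, adjusted p = 0.015). *Eng* was at 11.6 and 16.2 CPM against 6.96 and 8.67 CPM (0.83 ± 0.21, adjusted p = 0.028). Several of the calls rested on single pools. *Eng* was lost without vehicle 4V pool A (adjusted p = 0.15), 4V pool B (0.07) or LV pool B (0.13) and in DESeq2 (0.056), and without vehicle 4V pool A the calls of *Pecam1* (0.11), *Tie1* (0.091) and *Mmrn2* (0.05) were lost too, that of *Tie1* also without 4V pool B (0.063). *Plvap*, *Tbx18*, *Tek* and *Angpt2* kept theirs with any pool left out. 

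Beyond the calls, the direction was broadly shared. Of the 34 members tested 31 were above zero, with a median of 0.63 beside 0.01 for all genes (0.68 for endothelial and 0.40 for mural and stromal members), and 27 of the 34 (79.4%) were higher in both LV pools than in both 4V pools, beside 26.9% of all genes. *Flt1* (0.56, adjusted p = 0.057), *Esam* (0.70, 0.084), *Acta2* (0.88, 0.089), *Kdr* (0.36, 0.093), *Pdgfrb* (0.40, 0.095) and *Cd34* (0.49, 0.097) were among the members that missed the threshold. *Rgs5* (0.10) and *Pdgfra* (0.13), the most abundant members, differed little between the ventricles, and *Vwf* (-0.10), *Sox17* (-0.15) and *Higd1b* (-0.93) were below zero, of which *Higd1b* was lower in LV without overlap (0.764 and 0.597 against 1.48 and 1.11 CPM). Scaling by total counts, without TMM factors, moved the median over all genes by -0.19 and the members' differences by the same amount. In that fit 5 members were called in place of 8, a count given without the share of all genes called.

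The Cre-Tat pools are other mice, compared in the same way. In them, 33 of the 35 members were higher in LV than in 4V, 30 of them without overlap (85.7%, beside 22.7% of all genes), and *Cspg4* was lower without overlap. The test called 13 members, all higher in LV (beside 2.98% of all 15111 genes called in that direction), and all 8 calls of the vehicle pools were among them. *Plvap* was at 42.7 and 47.0 CPM against 14.5 and 20.54 CPM (1.35, adjusted p = 0.00026), *Angpt2* differed by 1.43 (adjusted p = 0.0015), *Tbx18* by 1.37 (adjusted p = 0.0017) and *Mmrn2* by 1.00 (adjusted p = 0.0042). The further calls were the VEGF receptor *Flt1* (0.83), the junction gene *Esam* (0.85) and the contractile genes *Acta2* (1.72), *Myh11* (0.89) and *Tagln* (0.84). The smooth muscle actin *Acta2* was at 7.34 and 9.72 CPM in LV and 2.77 and 2.42 CPM in 4V of these pools, and the LV pools were well above. LV and 4V were dissected from the same injected mice, but whether pool A of LV and pool A of 4V held the same mice is not stated, and the test treats them as separate.

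**Figure D5:**
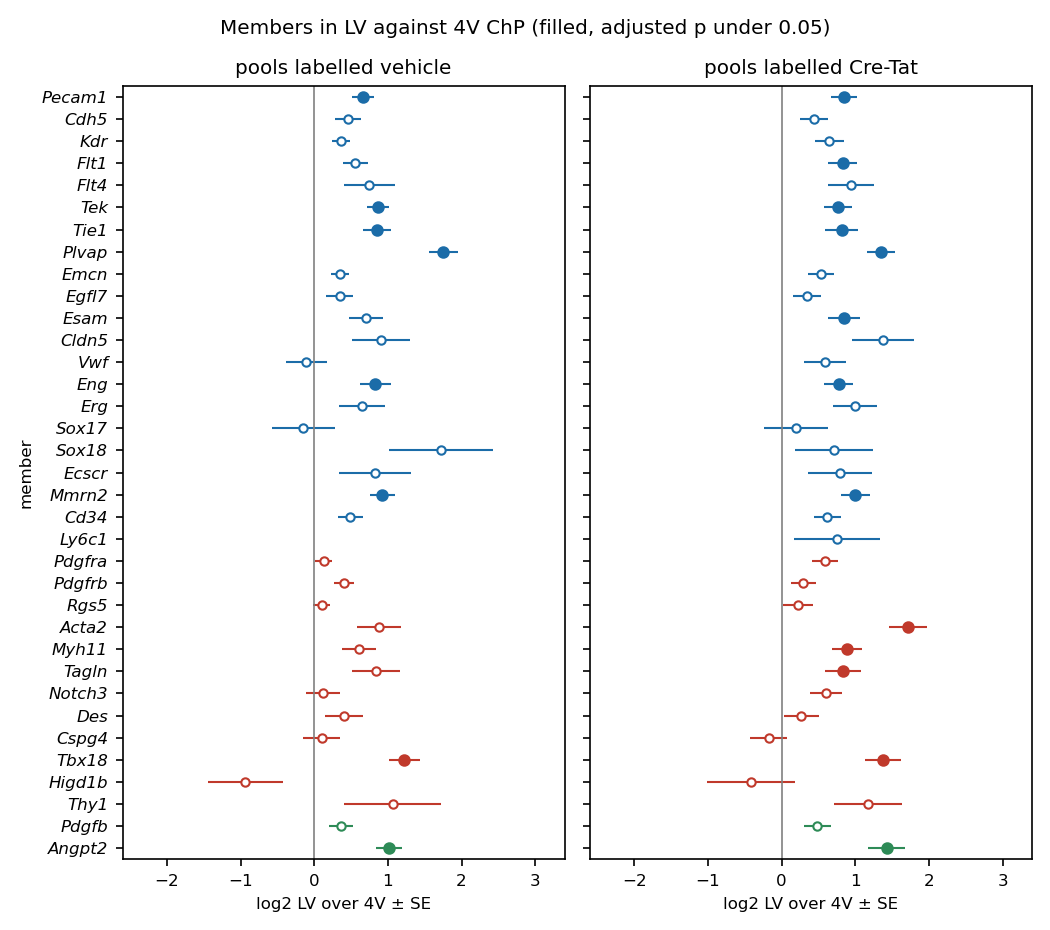
Log2 ratio of LV over 4V with SE of each member in the vehicle pools and in the Cre-Tat pools, filled where the adjusted p was under 0.05. Nearly all points lie above zero, 8 are filled in the vehicle pools and 13 in the Cre-Tat pools.

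Genes known from vessels, outside the 35 members, were described from further lists. Which cells of the bulk tissue made them was not tested. Of 20 other endothelial genes, 5 were called higher in vehicle LV than 4V: *Clec14a* (1.11), *Podxl* (1.11), *Cd93* (1.01), *Adgrl4* (0.88) and *Ptprb* (0.56), the last a phosphatase that acts on TEK. Of all genes tested, 3.46% were called higher in LV. The list had a median of 0.67, and 17 of its genes were above zero. None of these 20 genes was called by edgeR in any of the 4 comparisons of treatment or genotype (0, 3, 4 and 3 had an unadjusted p under 0.05 in LV, 4V, *Otx2+/GFP* and *Otx2* (+/AA), and DESeq2 called 0, 0, 1 and 0). Of 14 other mural genes, none was called in LV (edgeR and DESeq2; 0 with an unadjusted p under 0.05), whereas *Vtn*, the pericyte-enriched vitronectin, fell by 0.86 on the log2 scale in Cre-Tat 4V, by 1.73 in *Otx2+/GFP* and by 0.94 in *Otx2* (+/AA). *Vtn* (0.74) and *Foxs1* were the calls of this list between vehicle LV and 4V, both higher in LV.

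Among 12 further genes of the VEGF, angiopoietin and PDGF pathways, *Nrp2*, a coreceptor of VEGF-C, rose in Cre-Tat 4V (0.99, adjusted p = 0.00016) and in *Otx2+/GFP* (1.64, adjusted p = 0.00041). *Vegfc*, its ligand, fell in Cre-Tat 4V by 0.95, and *Angpt1* (0.84), the activating ligand of TEK, and *Pdgfc* (1.00), a ligand of PDGFRA, rose in *Otx2+/GFP*. No gene of this list was called in LV (2 with an unadjusted p under 0.05; DESeq2 called 0) or in *Otx2* (+/AA) (4; DESeq2 called 1). Between the ventricles, *Angpt1* (0.80) and *Nrp1* (0.47) were higher in vehicle LV, and *Vegfc* (-1.29) and *Vegfd* (-2.15) were higher in 4V.

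Genes that mark arteries and veins and genes of the barrier-forming brain endothelium were measured as well. With Cre-Tat, *Hey2*, a Notch target of arteries, fell in LV and in 4V (by 0.77 in each), and in 4V *Notch1* (0.85) and *Hey1* (0.70) rose and *Vcam1* fell by 0.54. In *Otx2+/GFP* and *Otx2* (+/AA) none of this list was called (3 and 4 with an unadjusted p under 0.05; DESeq2 called 0 in each). In vehicle LV over 4V, the venous factor *Nr2f2* (0.48), *Vcam1* (0.91) and *Sema3g* (1.13) were higher, as was the arterial connexin *Gja5*, which was near 0 in 4V, and *Hey1* (-0.87) was lower. Of 8 brain-barrier genes, *Slc2a1* rose (0.61) and *Slco1a4* (-0.57), *Slco1c1* (-0.57) and *Slc7a5* (-0.61) fell in Cre-Tat 4V, and none was called in LV (5 with an unadjusted p under 0.05), *Otx2+/GFP* (2) or *Otx2* (+/AA) (1), where DESeq2 called 0 in each, and *Itm2a* (0.64) was higher and *Mfsd2a* (-1.51) lower in vehicle LV than 4V. Several of these transporters are also made by ChP epithelium. Of the lymphatic list, *Pdpn* fell by 0.47 in Cre-Tat 4V and *Itga9* rose by 0.82 in *Otx2+/GFP*. None was called in Cre-Tat LV (2 with an unadjusted p under 0.05), *Otx2* (+/AA) (0) or LV against 4V (3), where DESeq2 called 0, 0 and 1.

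Markers of neighbouring cells between the ventricles are given beside the endothelial difference. In the vehicle pools the fibroblast genes summed to 381 and 396 CPM in LV and 304 and 313 CPM in 4V, the macrophage genes to 54.3 and 60.6 against 40.1 and 38.8 CPM, the epithelial genes to 186840 and 196150 against 176390 and 147500 CPM, and neuron and glia genes to 57.1 and 80.6 against 70.3 and 48.7 CPM. The epithelial sum mainly follows *Ttr* (0.24, not called), and of the epithelial genes only *Cldn2* was called, higher in LV (0.47). The fibroblast and macrophage sums were thus also higher in LV without overlap, and *Dcn* (0.59) and *Csf1r* (0.67) were the calls of these lists. Their part in the endothelial difference was not tested. Red blood cell genes stayed at or below 2.92 CPM in all pools but Cre-Tat LV pool B (8.71 CPM).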

How the data were processed

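RNA of 14 pools of mouse ChP was sequenced in 50-base reads. Per the labels, libraries were depleted of ribosomal RNA and strand-specific, whereas the methods name PolyA+ purification; the strand setting of the counting is not given in the sources used here. The authors deposited raw read counts per transcript for each sequencing run, made, as far as the submitters' processing notes name tools, with bcl2fastq 1.8.4, Bowtie 0.12.9, SAMtools and HTSeq 0.5.3 on mm10, and the notes also name DESeq 1.8.3.

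Files of the conditional model were joined by the library number in their names, and runs were summed. Of 95533 transcripts, 82807 were matched to 33984 genes of GENCODE release M21 (GRCm38) and held 89.5% of the counts. Each gene took its transcript with most counts. Whether pools A and B held different mice rests on the methods, and p-values measure the spread between these pools only.

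Each comparison was fitted with edgeR 4.0.16 (R 4.3.3) on its own pools with filterByExpr, TMM scaling, the quasi-likelihood test and Benjamini-Hochberg adjustment over all genes tested, at 0.05; interactions used the 8 pools concerned. The calculation was tested on simulated data. Alternatives were DESeq2 1.42.0, its size factors or total counts as scaling, no filter or a mean count above 10, sums over transcripts, all groups of a run in 1 fit, files as attached, the pool letter as a block, and each pool left out. Differences drawn without a test used log2(CPM + 0.5). Overlap of exons was read from the annotation. Tables and figures were made with pandas 2.3.3 and matplotlib 3.10.9.

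The members and all lists were chosen with earlier results of these data known. All members are named, with values per pool for those called, highest or near 0; of the other lists, the called genes are named, at most 3 in each direction by fold change, and for other cell types the summed level.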

Additional observations from a re-analysis of the deposited data

Results flagged for a closer look

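The effect of Cre-Tat and that of the *Otx2+/GFP* allele in 4V differed for *Plvap* and *Pdgfra* by a test of the difference itself, an interaction term in edgeR with adjusted p of 0.046 and 0.0038. For *Plvap* the change with Cre-Tat was higher by 1.16 on the log2 scale, with all pools of a treatment or genotype on the same side of their controls and the sides opposite in the 2 models. For *Pdgfra* the change with Cre-Tat was lower by -1.12, with both mutant groups on the lower side of their controls. The call of *Plvap* held with only 2 of the 8 pools left out in turn (adjusted p up to 0.24), and that of *Pdgfra* with all 8. Strain, injection and sequencing run differ between the models and cannot be told apart from the kind of mutation.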

How the results depend on the processing

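The members are limited by 2 pools a group, and the counted transcripts of *Tagln*, *Tbx18* and *Egfl7* share sequence with exons of other genes. The join of files to pools decides the results. Counts of members called under an alternative stand here without the share of all genes called in the same fit, unless it is given. They describe the processing and are not results about the members. By library number, the attached pools A and B of a group hold runs of the same libraries. The attached Cre-Tat groups hold LV libraries only, and the attached vehicle groups hold 4V libraries only. Values with files as attached thus do not estimate the contrasts that their names give. With files as attached, each pool mixes a Cre-Tat and a vehicle library, and 29 members were called in LV, 27 in 4V, 8 in the interaction of treatment and ventricle and 17 in that of treatment and model; *Pdgfra* became 0.31 in LV, 0.49 in 4V and 0.70 between models, *Angpt2* 1.41 in 4V, and in LV over 4V *Plvap* was -0.52, *Mmrn2* -0.36, *Tie1* -0.29, *Eng* -0.20, *Tek* -0.13, *Tbx18* -0.12 and *Pecam1* -0.071.

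Apart from that join, 117 of 127 values of named calls and counts kept their direction and side of the threshold, and 10 kept only the direction. For counts of members called, no filter gave 2 in LV and 13 in LV over 4V, total counts 5 in LV over 4V, sums over transcripts 0 in *Otx2+/GFP* and 1 between models, and all groups of a run in 1 fit 0 in *Otx2+/GFP*. The Cre-Tat pools in place of the vehicle pools, chosen after seeing the data, gave 13 in LV over 4V. With each pool left out, counts ran from 0 to 2 in LV (2 without Cre-Tat LV pool A or B), 2 to 3 in 4V, 0 to 2 in *Otx2+/GFP* (2 without pool B), 0 to 1 in *Otx2* (+/AA) (1, *Tagln*, without wildtype pool B), 4 to 12 in LV over 4V (4 without vehicle 4V pool A) and 1 to 2 between models.

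No source used here says that pools of the same letter belong together, and their deviations gave no clear answer with 2 pools a group (correlations of deviations -0.128 in LV, 0.15 in 4V, 0.359 in *Otx2+/GFP*, 0.0771 in *Otx2* (+/AA) and 0.0744 in LV against 4V). With the letter as a replicate block, 6 members were called in *Otx2+/GFP* (*Angpt2*, *Egfl7*, *Mmrn2*, *Pdgfb* and *Plvap* beside *Tbx18*), 1 in *Otx2* (+/AA) and 17 in LV over 4V, with 1 in LV and 3 in 4V as without it. The share of all genes called with the block is not given beside these counts. Crossing the letters in LV, chosen after seeing the data, gave 1 member and 1012 genes in all.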

Other observations

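Some genes of other stromal cells were called too. Of 8 macrophage and leukocyte genes tested, 2 rose in Cre-Tat LV, 5 in Cre-Tat 4V and 1 in *Otx2+/GFP*, and of 8 fibroblast genes 1, 1 and 3. Of all genes tested, 3.24%, 10.7% and 3.53% were called in these comparisons, in either direction. In the Cre-Tat pools *Ptprc*, the leukocyte antigen CD45, rose by 1.36 in LV (log2; edgeR, adjusted p = 0.0036) and by 1.60 in 4V (adjusted p = 7.1e-05), and *Adgre1*, the macrophage receptor F4/80, rose by 1.14 in LV and 1.21 in 4V. In 4V, *Aif1* (1.25), *Mrc1* (0.84) and *Csf1r* (0.75) rose as well. In *Otx2+/GFP*, *Mrc1* (0.64) rose, as did the collagen genes *Col1a2* (1.09) and *Col3a1* (0.82) and the growth factor *Igf1* (1.14). The rise of *Ptprc* in 4V was larger with Cre-Tat than its change with *Otx2+/GFP* by 1.25 (adjusted p = 0.037).

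Pools of a group differed among themselves for mural genes too. In wildtype, 10 of the 12 mural and stromal members were higher in pool B than in pool A, with a median difference of 0.35 on the log2 scale, beside -0.01 for all 14624 genes.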
